A study of Mus musculus with 6 samples.

Results

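The genes described here are 10 that act in muscle protein breakdown and its control: the transcription factors Foxo1 and Foxo3, the ubiquitin ligases Fbxo32 and Trim63, the autophagy genes Map1lc3b, Gabarapl1, Sqstm1 and Bnip3, the lysosomal protease gene Ctsl and the translation inhibitor gene Eif4ebp1. They were chosen by name, and every probe set whose single platform gene symbol was one of these names was taken. Of the 10 genes, 9 were found, by 21 probe sets, among 12394 genes named on the array. Trim63 was the gene without a probe set under its symbol and is not analysed here. Transcripts were measured in superficial masseter, a jaw muscle used in chewing, and in tibialis anterior, a muscle of the lower leg that lifts the foot, from normal female C57Bl/6 mice of 6 months. No genotype other than the strain and no treatment is named for either muscle. Each muscle had 3 samples, numbered 1 to 3, on 1 short-oligonucleotide array each, and the study compared chewing muscle with limb muscle to find genes whose levels differ.

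FoxO transcription factors enter the nucleus when insulin and growth factor signalling through the kinase Akt is low, and in muscle they raise the transcription of genes for protein breakdown. Fbxo32 (atrogin-1, MAFbx) and Trim63 (MuRF1) encode ubiquitin ligases that mark muscle proteins for the proteasome and are standard markers of muscle atrophy. In autophagy, proteins of the LC3 and GABARAP families coat a growing membrane, receptors such as Sqstm1 (p62) bring cargo to it, and lysosomal proteases such as cathepsin L digest what is delivered.

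Gabarapl1, Sqstm1 and Ctsl had lower signals in the masseter than in the tibialis anterior in all 3 numbered pairs, but 0 of the 9 genes passed the threshold of 0.05 on the adjusted p. The mean signal in the tibialis anterior was 1.65 times that in the masseter for Gabarapl1, 1.41 times for Sqstm1 and 1.40 times for Ctsl (n = 3 per muscle). Fbxo32 was set apart by 1 array, tibialis anterior 1, which held at least 2.03 times the signal of any other array on each of its probe sets. Foxo1, Foxo3, Eif4ebp1, Bnip3 and Map1lc3b had overlapping signals in the muscles on every probe set tested. Each difference is a log2 value, the masseter less the tibialis anterior, given with limma's standard error (SE). Array values always come in the order of replicates 1, 2 and 3, and the adjusted p is limma's after Benjamini-Hochberg adjustment over all probe sets tested.

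Of the 21 probe sets, 18 reached the filter level, a mean signal of 28.6, and were tested, and all 9 genes had at least 1 of them. In the direction of a lower masseter signal 0 of the 18 passed, beside 84 of 13576 probe sets in all (0.619%), and in the other direction 0 of the 18, beside 76 (0.56%), which together make 160 or 1.18%. At an unadjusted p under 0.05, 4 of the 18 were lower in the masseter, against a background of 6.12%, and 0 were higher, against 6.93%. Those 4 were the 2 probe sets of Gabarapl1 and the single ones of Sqstm1 and Ctsl. The signals of the muscles did not overlap on 3 of the 18, all lower in the masseter, where the background is 8.63%, and on 0 in the other direction, where it is 9.21%. The median difference of the 18 was -0.17, and that of all probe sets tested was 0.02. Probe sets of 1 gene read the same RNA, so these counts are not counts of independent measurements.

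**Figure D1:**
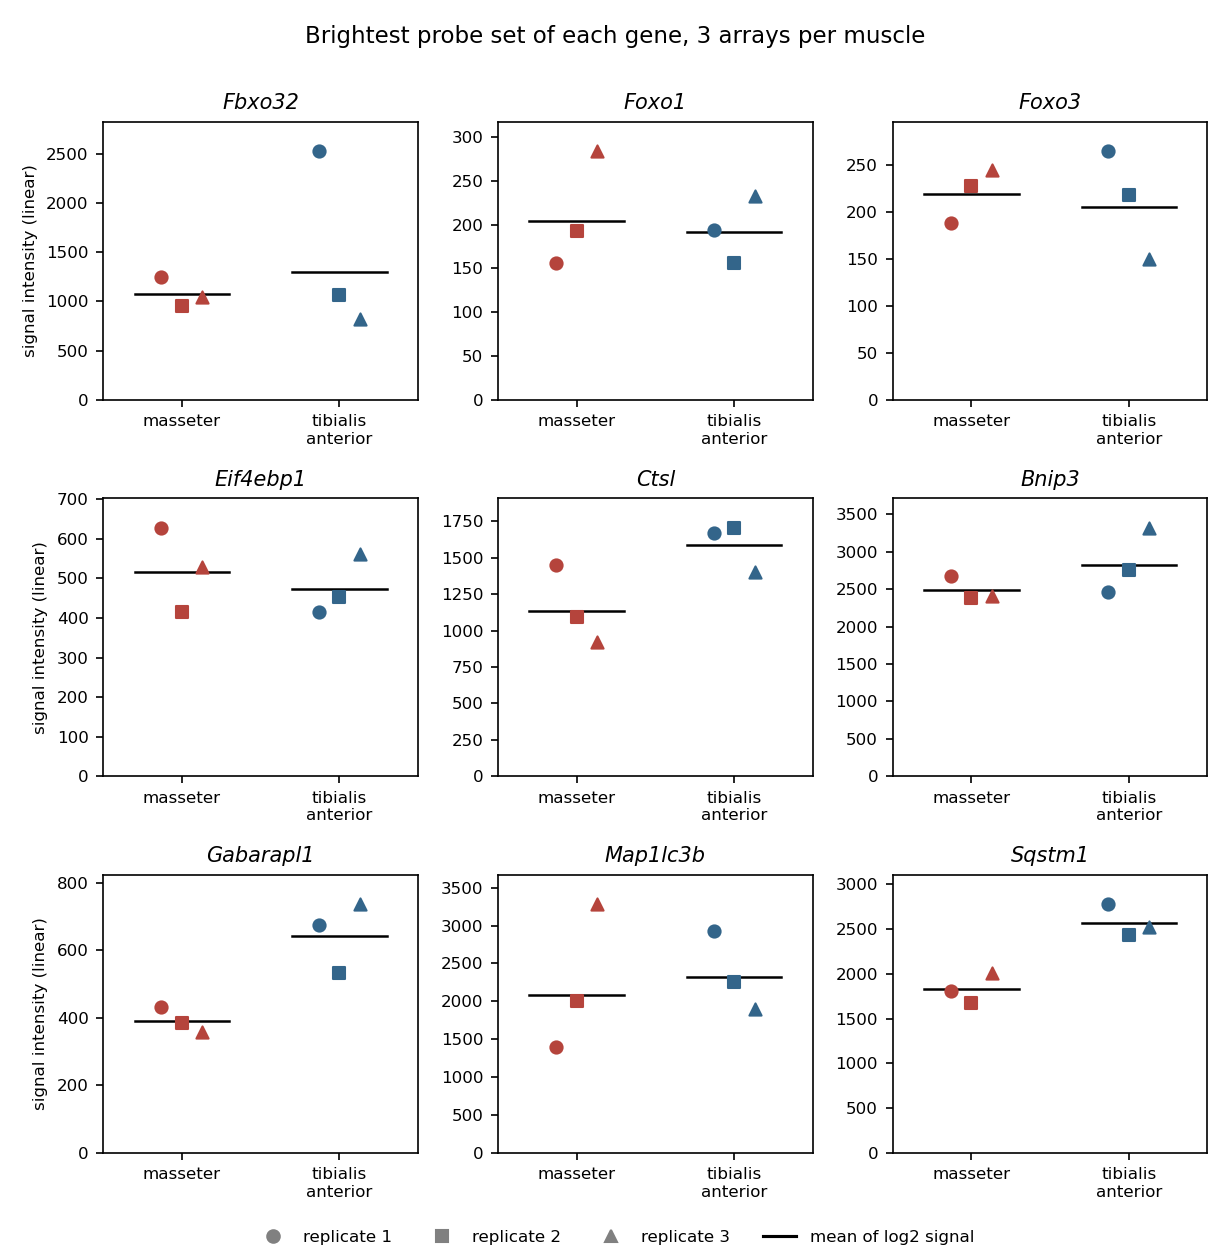
Signal intensity on a linear scale that starts at 0, for the brightest probe set of each of the 9 genes; each point is 1 array (red masseter, blue tibialis anterior, marker shape the replicate number) and each line is the mean of the log2 signals of a muscle, n = 3. The muscles separate for Gabarapl1 and Sqstm1, Ctsl overlaps by 1 array, and the Fbxo32 mean of the tibialis anterior is carried by replicate 1.

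Gabarapl1 encodes a GABARAP-family protein that is joined to lipid on autophagosome membranes. Its brighter probe set, 1416419_s_at, read signals of 430.9, 384.3 and 358.8 in the masseter arrays and of 674.0, 533.3 and 735.9 in the tibialis arrays. Every masseter array was below every tibialis anterior array. The difference was -0.72 ± 0.17 (SE, n = 3 per muscle), with a 95% interval of -1.10 to -0.34 and an adjusted p of 0.0994. The other probe set, 1416418_at, read 148.6, 141.6 and 117.6 in the masseter and 201.4, 199.9 and 262.8 in the tibialis anterior. Here too the muscles did not overlap, with a difference of -0.70 ± 0.21 and an adjusted p of 0.19. The probe sets thus gave the same direction in all 3 pairs, and pair 3 had the widest gap on both, at -1.04 and -1.16.

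Sqstm1 encodes p62, which binds both ubiquitin-tagged cargo and LC3-family proteins and is itself degraded by autophagy. Its probe set, 1450957_a_at, read 1810.2, 1673.2 and 2008.8 in the masseter arrays and 2776.4, 2430.7 and 2529.6 in the tibialis arrays. The muscles did not overlap, and the within-pair differences were -0.62, -0.54 and -0.33. The difference was -0.50 ± 0.13 (SE, n = 3 per muscle), with a 95% interval of -0.79 to -0.20 and an adjusted p of 0.133. Bulk muscle was measured, so fewer cells of a type and less transcript per cell cannot be told apart here.

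The 250 bases before the annotated start of Gabarapl1 and of Sqstm1 are printed because these genes had the signals that did not overlap between the muscles. They are from RefSeq on build GRCm38.p6, at chr6:129532942-129533191 on the plus strand for Gabarapl1 and chr11:50210821-50211070 on the minus strand for Sqstm1, written 5′ to 3′ in the direction of the gene. Windows were found for 8 of the 10 genes. Capitals mark matches on either strand to GTAAACA, a motif bound by FoxO factors, to TGTTT, the core that this motif contains on its other strand, and to CACGTG, the E-box read by many factors, TFEB of the lysosomal genes among them.
Gabarapl1: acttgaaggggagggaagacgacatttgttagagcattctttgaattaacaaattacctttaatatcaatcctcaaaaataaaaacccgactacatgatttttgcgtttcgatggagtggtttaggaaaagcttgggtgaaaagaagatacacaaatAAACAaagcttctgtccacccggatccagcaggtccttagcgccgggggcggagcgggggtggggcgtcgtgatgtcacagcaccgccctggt
Sqstm1: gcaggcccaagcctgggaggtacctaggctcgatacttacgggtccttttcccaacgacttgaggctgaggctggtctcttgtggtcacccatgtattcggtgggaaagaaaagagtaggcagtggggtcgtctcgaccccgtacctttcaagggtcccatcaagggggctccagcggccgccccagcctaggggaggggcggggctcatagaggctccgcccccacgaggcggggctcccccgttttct
GTAAACA stood in neither window, and variants of it were not searched. Among the 8 windows it was found in 1, that of Trim63, beside 3.17% of all 32851 promoter windows of this length. The core stood in 5 of the 8 (46.4% of all windows), including 1 match in Gabarapl1, 89 to 93 bases before its start, and 0 in Sqstm1. The E-box was found in 2 of the 8, Ctsl and Bnip3 (6.02% of all windows). The Ctsl window ends in letters that resemble a splice acceptor, so its annotated start may not be a start of transcription, and its matches to the core and the E-box may not lie in a promoter. A match is a description of these letters and shows no binding.

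Ctsl encodes cathepsin L, a lysosomal cysteine protease whose transcript is among those raised in many forms of muscle wasting. Its probe set, 1451310_a_at, read 1453.9, 1095.6 and 923.1 in the masseter arrays and 1673.5, 1704.7 and 1405.7 in the tibialis arrays. The muscles overlapped only by masseter 1, which lay above tibialis anterior 3. The difference was -0.48 ± 0.14 (SE, n = 3 per muscle), with a 95% interval of -0.81 to -0.15 and an adjusted p of 0.198. Masseter 1 was also the array with the highest mean log2 signal over 9 salivary gland genes, at 10.91. The other masseter arrays were at 7.01 and 5.59, and the tibialis anterior arrays at 6.83, 5.74 and 4.87. Smr2, a gene of this list, was instead lowest on masseter 1, at 1010.4. Without replicate 1 the difference of Ctsl was -0.62 (adjusted p = 0.0955), that of the brighter Gabarapl1 probe set -0.75 (adjusted p = 0.116) and that of Sqstm1 -0.44 (adjusted p = 0.225). With masseter 1 alone left out, in a fit without the block, these differences were -0.66, -0.79 and -0.49 (adjusted p = 0.138, 0.119 and 0.239). The part of salivary gland transcript in these differences was not tested. Macrophages are also rich in cathepsins. The mean log2 signal over 11 macrophage and immune genes was 5.80 to 6.43 in the masseter and 5.47 to 6.14 in the tibialis anterior, with 0 past the threshold of the 9 that were tested. The part of these cells in the Ctsl signal was not tested.

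Fbxo32 did not separate the muscles. Its brighter probe set, 1448747_at, read 1242.7, 951.7 and 1045.6 in the masseter arrays and 2523.2, 1061.6 and 816.2 in the tibialis arrays. Its other probe set, 1417522_at, read 397.6, 391.2 and 471.6 in the masseter and 1393.5, 497.6 and 418.9 in the tibialis anterior. On both, tibialis anterior 1 stood far above the other 5 arrays, by 2.03 and 2.80 times the next highest, while those 5 differed among themselves by at most 1.52 and 1.27 times. Of all 13576 probe sets tested, 151 (1.11%) had tibialis anterior 1 at 1.5 or more times every other array. The differences were -0.27 ± 0.24 (adjusted p = 0.695) and -0.66 ± 0.33 (adjusted p = 0.444), with 95% intervals of -0.82 to 0.27 and -1.41 to 0.08. Without replicate 1 they were 0.10 (adjusted p = 0.855) and -0.09 (adjusted p = 0.887), so the direction on the brighter probe set turned. The within-muscle standard deviation of log2 signal was 0.20 over the masseter arrays and 0.85 over the tibialis arrays on the brighter probe set.

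By a fixed measure of likeness, 3 of 8315 other named genes had the profiles nearest to that of Fbxo32, as the root-mean-square difference of log2 signal over the 6 arrays after centring. These were Unc5b, a netrin receptor, at 0.11, Cd93, a glycoprotein of endothelial and myeloid cells, at 0.18, and 4932438H23Rik at 0.18. Unc5b read 55.0, 40.1 and 46.8 in the masseter and 109.8, 38.1 and 32.6 in the tibialis anterior. Cd93 read 240.5, 193.3 and 164.3 in the masseter and 391.1, 191.0 and 175.8 in the tibialis anterior. Both had tibialis anterior 1 as the highest array, which follows from their choice by likeness to the brighter Fbxo32 probe set. The mean log2 signal of 6 endothelial genes was highest on that array too, at 7.78, against 7.25 and 7.63 on the other tibialis anterior arrays and 7.21 to 7.34 in the masseter, with 0 of the 6 past the threshold. The genes of that list did not share the peak. Kdr and Cldn5 were highest on tibialis anterior 1, Pecam1, Cdh5 and Vwf on tibialis anterior 3, and Tek on masseter 2. The part of endothelial cells in the Fbxo32 signal was not tested.

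Foxo1 and Foxo3, which encode the FoxO factors most studied in muscle atrophy, showed no difference that passed. The brightest Foxo1 probe set, 1416983_s_at, read 156.2, 192.4 and 283.4 in the masseter arrays and 193.5, 155.7 and 233.0 in the tibialis arrays. Replicate 3 was the highest array in each muscle, and the muscles overlapped, with a difference of 0.09 ± 0.19 and a 95% interval of -0.35 to 0.54 (adjusted p = 0.895). The Foxo1 probe sets 1416981_at and 1416982_at had differences of -0.13 ± 0.21 and -0.16 ± 0.22 (adjusted p = 0.855 and 0.827). The brightest Foxo3 probe set, 1434831_a_at, read 187.8, 226.7 and 244.3 in the masseter and 263.9, 217.7 and 149.2 in the tibialis anterior. Its difference of 0.09 ± 0.24 had a 95% interval of -0.45 to 0.64 (adjusted p = 0.915). The other tested Foxo3 probe set, 1434832_at, differed by 0.06 ± 0.22 (adjusted p = 0.942). The intervals of the brightest probe sets allow a tibialis anterior level of 0.688 to 1.28 times that of the masseter for Foxo1 and of 0.642 to 1.37 times for Foxo3, so equal levels are not shown. The remaining Foxo1 probe set, 1456529_at, and Foxo3 probe set, 1450236_at, lay under the filter and were not tested. The latter read 1.3 to 4.5 in the masseter and 5.5 to 32.4 in the tibialis anterior, where replicate 1 alone lay above the filter level.

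**Figure D2:**
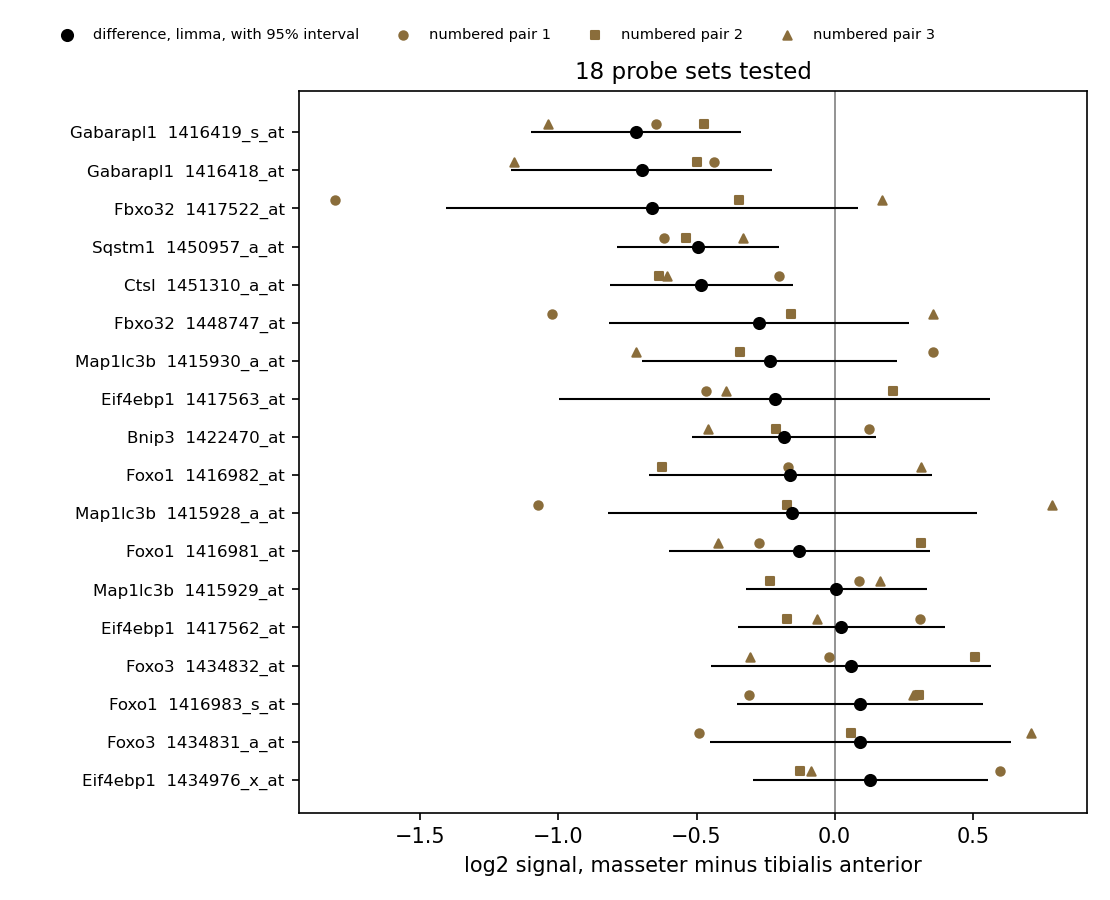
Log2 signal, masseter minus tibialis anterior, for the 18 probe sets tested; black points are limma's difference with its 95% interval and brown markers are the 3 numbered pairs. Intervals of Gabarapl1 (both probe sets), Sqstm1 and Ctsl lie below 0 before adjustment over all probe sets, and the Fbxo32 pairs are spread from -1.81 to 0.36 over its probe sets.

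Map1lc3b encodes LC3B, the membrane-bound protein used to track autophagosomes, and its probe sets disagreed. The brightest, 1415928_a_at, read 1390.5, 1997.0 and 3277.7 in the masseter arrays and 2926.4, 2248.5 and 1901.5 in the tibialis arrays. On 1415930_a_at the masseter arrays stood in the opposite order, at 1490.1, 1326.6 and 799.2, beside 1164.9, 1683.9 and 1315.5 in the tibialis anterior. The third, 1415929_at, was nearly level, at 1212.4, 1129.2 and 1100.2 in the masseter and 1140.8, 1328.0 and 981.2 in the tibialis anterior. The differences were -0.15 ± 0.29, -0.24 ± 0.20 and 0.01 ± 0.14 (adjusted p = 0.883, 0.691 and 0.991). Masseter 3 was thus the highest of the 6 arrays by the first probe set and the lowest by the second, and no level of this gene in that sample can be read from them together. The remaining probe set, 1428024_at, lay under the filter, at 3.1 to 16.4 over the 6 arrays.

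Bnip3 encodes a protein of the outer mitochondrial membrane that binds LC3-family proteins in the removal of mitochondria. Its probe set, 1422470_at, read 2680.1, 2376.7 and 2414.1 in the masseter arrays and 2456.3, 2754.7 and 3318.0 in the tibialis arrays. The muscles overlapped, with tibialis anterior 3 the highest array, and the difference was -0.18 ± 0.15 with a 95% interval of -0.51 to 0.15 (adjusted p = 0.668). Eif4ebp1 encodes 4E-BP1, which holds back cap-dependent translation when mTOR is inactive and whose gene is induced by FoxO factors. Its brightest probe set, 1434976_x_at, read 627.6, 415.9 and 529.3 in the masseter and 414.5, 454.1 and 562.3 in the tibialis anterior. The muscles overlapped, with a difference of 0.13 ± 0.19 (adjusted p = 0.834). On 1417562_at all 6 arrays lay between 393.7 and 487.1 (0.02 ± 0.16, adjusted p = 0.971), and on 1417563_at, a dim probe set, between 31.2 and 58.4 (-0.22 ± 0.34, adjusted p = 0.848). Over the 6 arrays 1417562_at had the narrowest span of the 18 probe sets, at 1.24 times from lowest to highest.

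Relatives of the lower genes were set beside them as log2 ratios within each array, for 6 pairs chosen after the values were seen. The ratio of Gabarapl1 to Gabarap was -0.85 ± 0.22 over the masseter arrays and 0.09 ± 0.41 over the tibialis arrays (SD, n = 3 each), a change of 1.91 times without overlap. The two-sided exact permutation test took no account of the replicate numbers. Its p was 0.1, the smallest that 3 arrays against 3 allow, and 0.15 after adjustment over the 6 pairs. The ratio to Gabarapl2 was -0.28 ± 0.16 and 0.19 ± 0.17 (SD, n = 3), again without overlap (exact permutation p = 0.1, adjusted 0.15). That to the brightest Map1lc3b probe set overlapped (exact permutation p = 0.4, adjusted 0.4). The ratio of Ctsl to Ctsb, cathepsin B, was -0.31 ± 0.29 for masseter and 0.07 ± 0.03 for tibialis anterior, and that to Ctsd, cathepsin D, was -0.72 ± 0.32 and -0.28 ± 0.06 (SD, n = 3; exact permutation p = 0.1 for each, adjusted 0.15). The ratio of Sqstm1 to Nbr1, another ubiquitin-binding autophagy receptor, overlapped (exact permutation p = 0.3, adjusted 0.36). No pair could reach a p under 0.05 in this design.

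Of the other genes of these pathways, 113 in 6 lists were measured. By its brightest probe set 0 of the 113 genes passed in either direction, where 0.661% of all 8316 named genes tested passed as lower in the masseter and 0.709% as higher. Over all their 197 tested probe sets 1 passed, a dimmer one of Cdkn1a (p21), an inhibitor of the cell cycle, named here after its values were seen. It read 189.4, 100.2 and 60.7 in the masseter and 348.6, 199.9 and 219.2 in the tibialis anterior, without overlap. Its difference was -1.24 ± 0.23 (adjusted p = 0.0498), whereas the brightest Cdkn1a probe set overlapped and was at -0.50 ± 0.29 (adjusted p = 0.541). The dimmer probe set lost its pass without the trend (adjusted p = 0.259), without the filter (0.0649) and with quantile normalization (0.058). It also lost it without replicate 2 (0.0657), without replicate 3 (0.12), and in the fit without the block (0.204), from which each single array was also left out (0.0597 to 0.441).

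At an unadjusted p under 0.05, by the brightest probe sets, 11 of the 113 genes were lower in the masseter and 7 higher, where the shares of all named genes are 6.57% and 7.35%, and the median difference was -0.04, beside 0.02 over all named genes. Of 25 FoxO regulators and targets, 4 were lower and 4 higher at that level, beside those same shares. Sgk1, a kinase related to Akt that also phosphorylates FoxO factors, read 1137.2, 1798.7 and 1010.3 in the masseter and 1391.8, 3582.1 and 2507.3 in the tibialis anterior (-0.87 ± 0.19, adjusted p = 0.0925). It was lower in the masseter in all 3 pairs, and without replicate 1 it passed, at -1.15 (adjusted p = 0.00685). Akt2, the Akt isoform of insulin signalling, read 819.6, 777.3 and 929.0 in the masseter and 509.7, 567.1 and 389.7 in the tibialis anterior. All masseter arrays were above all tibialis anterior arrays (0.80 ± 0.18, adjusted p = 0.0968). The probe set of Foxo4 lay under the filter, at 3.0 to 40.4.

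Over all 8316 named genes tested, 3965 differences were below 0 and 4351 above. Of 20 measured ligase and ubiquitin genes, 15 had a difference below 0 and 5 above, and the median was -0.14. The smallest p values were those of Usp19, a deubiquitinating enzyme of muscle (-0.50 ± 0.18, adjusted p = 0.268), and Cul3, a cullin scaffold of ubiquitin ligases (-0.42 ± 0.15, adjusted p = 0.286). Both had every masseter array below every tibialis anterior array on the brightest probe set. The other tested Cul3 probe sets overlapped, at -0.17 ± 0.16 and -0.11 ± 0.20 (adjusted p = 0.73 and 0.869). That of Usp19 did not overlap, at -0.59 ± 0.22 (adjusted p = 0.307). Trim54 (MuRF3), a relative of Trim63, read 2434.1 to 2956.7 in the masseter and 2392.0 to 2781.6 in the tibialis anterior (-0.01 ± 0.14, adjusted p = 0.98). In this list 6 genes did not overlap with the masseter lower and 2 with the masseter higher, where 8.63% and 9.21% of all probe sets did. Those shares are of probe sets and not of genes by their brightest probe set. Over the 113 genes of the 6 lists, 14 did not overlap with the masseter lower and 9 with the masseter higher.

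Among 26 measured genes of the autophagy core, 12 differences were below 0 and 14 above, with a median of 0.05. Those with the smallest p were Atg16l1, which directs LC3-family proteins to membranes (-0.44 ± 0.17, adjusted p = 0.324), and Atg101, of the complex that starts autophagy (-0.48 ± 0.19, adjusted p = 0.347). Gabarap and Gabarapl2, the close relatives of Gabarapl1, went opposite ways by 0.22 ± 0.15 and -0.25 ± 0.14 (adjusted p = 0.606 and 0.537). The starter kinase Ulk1 (-0.15 ± 0.22, adjusted p = 0.838) and Becn1, of the lipid kinase complex (0.25 ± 0.16, adjusted p = 0.559), had overlapping muscles. Of 9 cargo receptor and mitophagy genes, 0 had an unadjusted p under 0.05, and the smallest p were those of Wdfy3, a scaffold of aggregate clearance (0.34 ± 0.26, adjusted p = 0.654), and Tax1bp1, a receptor (-0.18 ± 0.17, adjusted p = 0.725). The muscles overlapped for all 9 of these, and whether Sqstm1 differed from them was tested for Nbr1 alone, as the ratio above.

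Of 25 lysosomal genes, 12 differences were below 0 and 13 above, with a median of 0.06. Ctsh, cathepsin H, read 286.3, 175.9 and 145.4 in the masseter and 90.9, 116.3 and 114.6 in the tibialis anterior, higher in the masseter without overlap (0.87 ± 0.27, adjusted p = 0.205). Its masseter arrays stood in the same order as the mean log2 signal of the salivary gland genes. Its tibialis arrays did not, as that mean was highest on replicate 1, at 6.83, where Ctsh was lowest. The part of salivary gland transcript in the Ctsh signal was not tested. Ctsc, cathepsin C, was at 0.33 ± 0.15 (adjusted p = 0.39), and Ctsb and Ctsd were at -0.10 ± 0.13 and -0.05 ± 0.13 (adjusted p = 0.812 and 0.918). The lysosomal transcription factor Tfeb was at -0.01 ± 0.22 (adjusted p = 0.989). Of 8 genes of translation initiation and its control, 7 differences were below 0 and 1 above, with a median of -0.19. Among all 8316 named genes tested, 3965 differences were below 0. Eif4ebp2, a relative of Eif4ebp1, read 186.7, 181.1 and 147.4 in the masseter and 258.4, 230.6 and 207.9 in the tibialis anterior, without overlap (-0.44 ± 0.17, adjusted p = 0.311). Its dimmer tested probe sets disagreed in direction, at -0.45 ± 0.27, 0.40 ± 0.37 and -0.03 ± 0.42. Eif3f, a translation initiation factor that Fbxo32 marks for degradation, was at -0.29 ± 0.13 (adjusted p = 0.395).

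**Figure D3:**
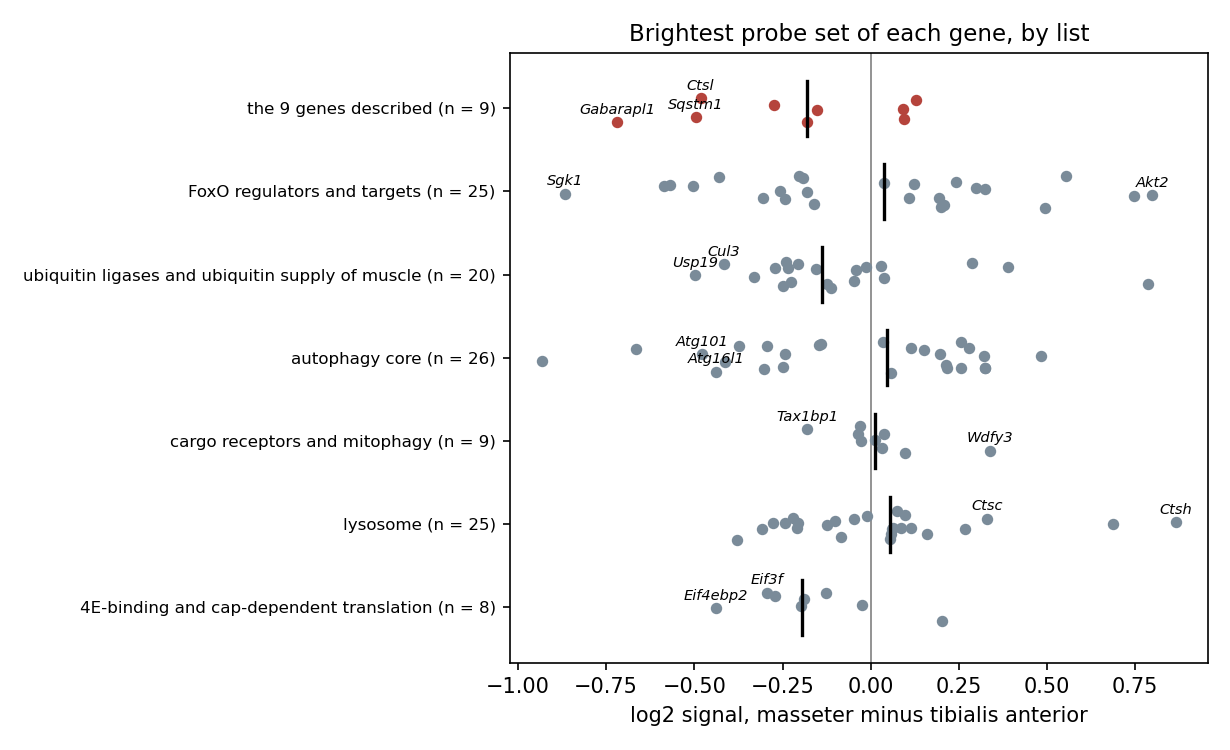
Log2 signal, masseter minus tibialis anterior, of the brightest probe set of each gene (points) in the 9 genes described and in 6 lists of other pathway genes, with each list's median as a vertical bar; vertical scatter within a list has no meaning. Named are the genes with the smallest p of each list, and 0 of the points passed the threshold.

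Some genes of the FoxO list followed the replicate number in both muscles. From that list 4 genes, chosen after their values were seen, are plotted beside Fbxo32 by their brightest probe sets. Pdk4, a brake on glucose oxidation that FoxO factors induce, read 4930.3, 1786.5 and 3550.2 in the masseter arrays and 4766.2, 1367.7 and 4430.0 in the tibialis arrays, so replicate 2 was lowest in both muscles. Tsc22d3 (GILZ), a glucocorticoid target, read 263.6, 904.1 and 1030.9 in the masseter and 308.5, 750.6 and 820.8 in the tibialis anterior, so replicate 1 was lowest in both. Fkbp5, another glucocorticoid target, was lowest in replicate 2 of both muscles, at 304.8 and 276.6, and the brightest Cdkn1a probe set was highest in replicate 1 of both, at 776.6 and 575.4. The dimmer Cdkn1a probe set was also highest in replicate 1 of each muscle, but there, as given above, the muscles did not overlap. In that list 8 of 25 genes ranked the 3 numbers alike in both muscles, against 18.1% of all probe sets tested, and among the 18 probe sets of the 9 genes it was 1. Fkbp5 was not among the 8, as its highest array was replicate 3 in the masseter and replicate 1 in the tibialis anterior. Fbxo32 showed its high value in tibialis anterior 1, while masseter 1 was the highest masseter array by one of its probe sets and not by the other.

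**Figure D4:**
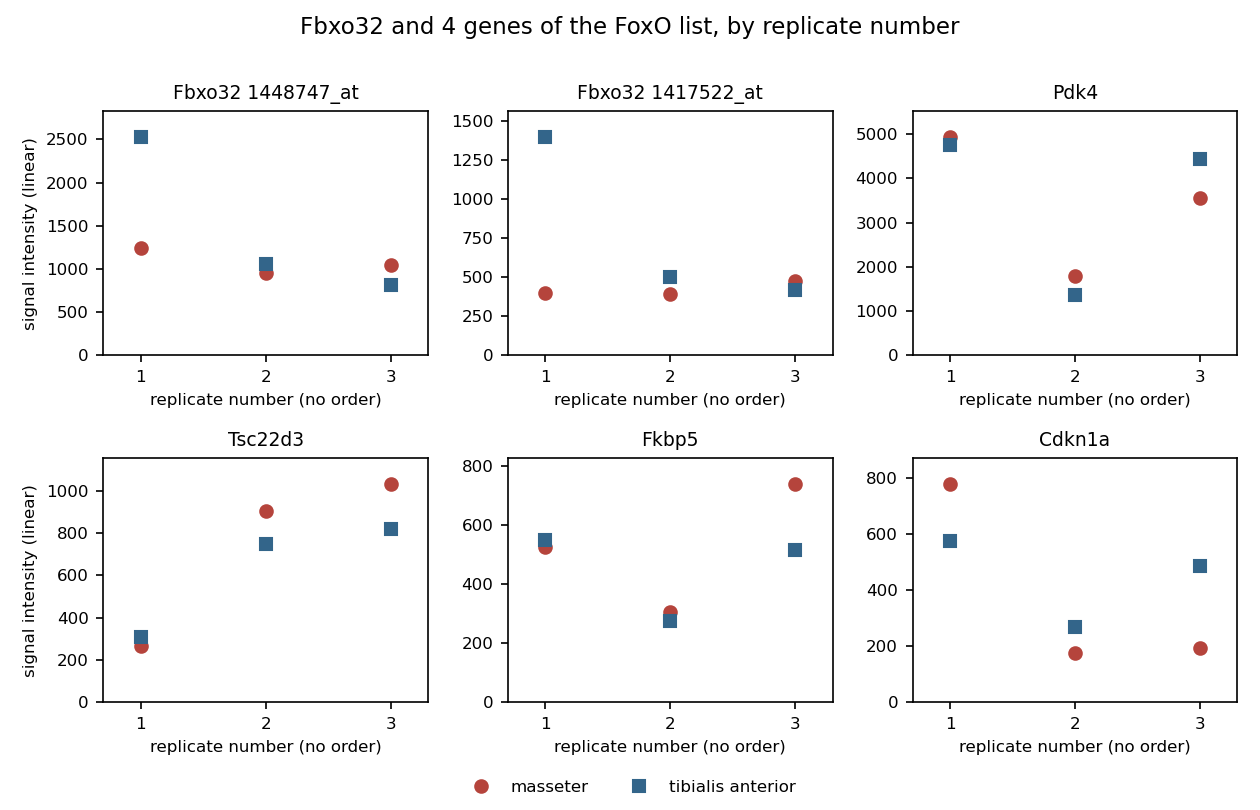
Signal intensity on a linear scale that starts at 0, by replicate number, for both probe sets of Fbxo32 and for the brightest of Pdk4, Tsc22d3, Fkbp5 and Cdkn1a; red circles are masseter and blue squares tibialis anterior, 1 array each. The muscles of a number lie close for Pdk4 and Tsc22d3, whereas Fbxo32 is high in tibialis anterior 1 alone.

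Across the arrays the trimmed mean signal was 150.1 on each, and the median ran from 44.1 to 50.7. The labelled tissue was checked by 8 muscle fibre genes, which had a mean log2 signal of 12.45 to 12.76 in the masseter and 12.68 to 12.74 in the tibialis anterior and 0 past the threshold. Marker genes of other cell types were also read in both muscles. Of the 3 erythroid genes on the array only Alas2 reached the filter level, so their mean shows little about blood cells. Adipocyte genes were at 7.93 to 8.76 in masseter and 7.23 to 8.10 in tibialis (1 of 5 tested past the threshold), nerve and Schwann cell genes at 7.08 to 7.50 and 6.54 to 6.97 (0 of 4), fibroblast and tendon genes at 6.98 to 7.58 and 7.47 to 7.73 (0 of 6) and erythroid genes at 5.17 to 5.50 and 4.70 to 4.97 (0 of the 1 tested). Of the 9 salivary gland genes 6 were tested and 2 passed, both higher in the masseter. Smr2, also tested, went the other way and did not pass (-0.64, adjusted p = 0.327). It read 1010.4, 1185.4 and 2123.3 in the masseter and 2548.0, 2063.0 and 1848.5 in the tibialis anterior. The part of these cell types in the differences of Gabarapl1, Sqstm1 and Ctsl was not tested.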

How the data were processed

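Transcripts of 3 masseter and 3 tibialis anterior samples were read on 1 array each. The values the authors deposited are linear signal intensity, 1 value for each probe set on each array. The programs MAS5 and GCOS are named, with neither version nor settings, in the submitters' processing notes. The number of arrays limits the precision. A 2% trimmed mean of 150.1 was common to the arrays, and no scaling was added.

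Signals under 1 were set to 1 before taking log2. Of 22690 probe sets, 64 controls were dropped, and 13576 whose mean log2 signal reached the 40th percentile (4.84) were tested. Gene names are those of the platform annotation; 0 symbols changed against RefSeq by gene identifier. The test was limma 3.58.1 (R 4.3.3; lmFit and trended eBayes), two-sided, with Benjamini-Hochberg adjustment over all probe sets kept. Replicate numbers entered as a block, since paired comparisons are described in the series' design text. Whether samples came from separate mice is not given in the sources used here, so p-values measure only the spread between these samples, which may be technical.

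The genes and lists were chosen with earlier results of these data known. Named were every member by every probe set, the 2 genes of each list with the smallest p, the 3 genes most like Fbxo32 and a fixed set of relatives; Trim55 and Bnip3l, which that set includes, are not analysed here. The procedure was tested on simulated data. Alternatives were the block, the trend, the filter, an offset, quantile normalization, the probe set rule and leaving out each pair or array.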

Additional observations from a re-analysis of the deposited data

How the results depend on the processing

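Under 15 alternatives (14 for Eif4ebp1 1417563_at, which fell under the filter at the 60th percentile), 0 of the probe sets of the 9 genes passed in either direction, as in the fit reported. The differences of Gabarapl1 (-0.85 to -0.56 and -0.83 to -0.47 for its probe sets), Sqstm1 (-0.58 to -0.43) and Ctsl (-0.66 to -0.33) stayed below 0 in all 15. Their adjusted p ran from 0.0824 to 0.331 and from 0.14 to 0.444 for the Gabarapl1 probe sets. It ran from 0.107 to 0.536 for Sqstm1 and from 0.0955 to 0.723 for Ctsl. Bnip3, 1 Fbxo32 and 1 Eif4ebp1 probe set also kept their direction where tested. The other 11 probe sets turned direction, each only where a pair or an array was left out. Leaving these out gave -0.61 to 0.21 for Fbxo32 1448747_at, -0.14 to 0.29, -0.38 to 0.068 and -0.46 to 0.082 for Foxo1 1416983_s_at, 1416981_at and 1416982_at, -0.22 to 0.38 and -0.16 to 0.24 for Foxo3 1434831_a_at and 1434832_at, -0.11 to 0.29 and -0.12 to 0.12 for Eif4ebp1 1434976_x_at and 1417562_at, and -0.62 to 0.31, -0.53 to 0.036 and -0.10 to 0.13 for Map1lc3b 1415928_a_at, 1415930_a_at and 1415929_at.

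Over all probe sets 160 passed, 13 with eBayes without trend and 47 to 188 with a pair or an array left out; single arrays were left out in fits without the block. Of the pathway genes, by their brightest probe sets, 0 passed, except Sgk1 without replicate 1 (range 0 to 1). With any tested probe set of a gene counted, an alternative chosen after seeing the data, 1 passed, Cdkn1a, which was lower in the masseter in all 15 alternatives and passed in 3. Without the replicate block 138 probe sets passed, 0 of them of the 9 genes. Over all probe sets, samples of the same number were only weakly alike. Deviations from the muscle means correlated at 0.04, 0.15 and 0.10 across probe sets for numbers 1, 2 and 3. Between unlike numbers they correlated at -0.16 to 0.05, a range that held the value of number 1 and lay below those of 2 and 3. The mean log2 signal of 9 salivary gland genes fell from number 1 to number 3 in both muscles, though not every gene of that list did. It was 10.91, 7.01 and 5.59 in the masseter and 6.83, 5.74 and 4.87 in the tibialis anterior. Whether samples of a number share more than the number cannot be told from these values.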
